A study of Mus musculus with 8 samples.

Results

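Neural crest specifiers and receptors were followed as 10 genes in SAGE libraries of mouse neural tissue: the transcription factors Sox9, Sox10, Foxd3, Tfap2a, Tfap2b, Ets1 and Snai2, and the receptors Ednrb, Erbb3 and Kit. They were chosen by name from the 26608 gene symbols of the count files, and all 10 were found. Tfap2a and Tfap2b are listed there under the older symbols Tcfap2a and Tcfap2b. The tissue was cut by laser from cryosections of FVB embryos at embryonic day 8.5, and all the mothers were diabetic, so the open neural tubes too come from diabetic pregnancies. The 4 protrusion libraries hold outgrowths of the open neural plate. By the morphology label, protrusion 1 was separated from the plate and protrusions 2, 3 and 4 were attached to it. The 4 open neural tube libraries, numbered 9, 10, 13 and 14, hold open neural plate just anterior to closure site 1, the place where the folds first fuse.

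Neural crest cells form at the border between neural plate and surface ectoderm, leave the neural folds and migrate to build peripheral neurons, glia, pigment cells and much of the skeleton of the face. Border cells first express AP-2 factors, encoded by Tfap2a and Tfap2b. Specifiers such as Foxd3, Sox9, Snai2 and Ets1 then accompany the change to a migratory cell, and Sox10 marks crest that has left the folds. The receptors Ednrb, Erbb3 and Kit, for endothelins, neuregulins and Kit ligand, guide and sustain later crest cells. Several of these genes also serve other tissues: Sox9 the sclerotome and notochord, Ets1 the endothelium, Foxd3 the epiblast, Tfap2a the surface ectoderm, and Kit germ cells and blood.

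SAGE counts a short tag at 1 restriction site per transcript, classically the CATG nearest the 3′ end, which NlaIII cuts; the labels name the kit and not the enzyme. The tags expected on that rule are shown because a gene with no site, or with a tag shared by another gene, could not be read. They were taken from the longest curated GENCODE M21 transcript (GRCm38) of each gene and are expected tags, not observed ones. Capitals mark the CATG site, and the 23 bases after it are in lower case, 5′ to 3′.
Sox9: CATGcctctgcaagtgtgtgtgccgtg
Sox10: CATGttcctatccctctagctactcca
Foxd3: CATGgccacgcaccagcccctgtcgct
Tfap2a: CATGctattgcttcctgaccgggggca
Tfap2b: CATGgttacaagacccctccctattta
Ets1: CATGcggccttctctgttggggtctat
Snai2: CATGtgatggatgcagtaatacaatgc
Ednrb: CATGcacttgtaataaagccgtgtaaa
Erbb3: CATGtgtgagcttccagactccgtttg
Kit: CATGtgggttttttctgatatgttgtc

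All 10 genes held a site. Each of the tags shown occurred after a CATG in the transcripts of 0 other genes. Of 20496 genes with a curated transcript, 114 held no site in any of them. The site lay in the 3′ UTR of 9 genes, at 71 bases from the transcript end in Tfap2a and up to 676 bases in Tfap2b. In Foxd3 it lay in the coding sequence, 742 bases from the end. Tfap2a, Tfap2b and Ets1 each had transcript forms with a second, different tag.

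Library totals ran from 6112477 to 11430602 reads in protrusions and from 5668054 to 16655583 in open neural tubes. A level of 3 reads, taken as the floor, stood for 0.262 to 0.491 CPM (reads scaled to a library total of 1000000) in protrusions and for 0.18 to 0.529 CPM in open neural tubes. Such floors cover counting error only. The open neural tube libraries missed more genes. Of the genes averaging 5 to 20 CPM, the share with 0 reads was 0.0915% to 0.549% in protrusions, against 4.85% to 18.8% in open neural tubes. Neural progenitor markers, the check of the tissue, summed to 1626 to 2909 CPM in protrusions, against 3018 to 4093 CPM in the open neural tubes over 17 genes, of which Nkx6-1 was at 0 in all 8. Sox11 alone had 784 to 1398 CPM in protrusions and 1821 to 2746 CPM in open neural tubes, so the group difference in these sums rests largely on that gene. It gave 2746 of the 3018 CPM in open neural tube 13, where Sox2 had only 30.9 CPM. Sox2 overlapped between the groups, with 158 to 583 CPM in protrusions and up to 550 CPM in open neural tubes. Of the 15 markers that could be tested, 8 were lower in protrusions. Open neural tube 13 stood apart in its content, with the highest sums of endothelial and paraxial mesoderm markers of all 8 libraries. Whether each library is another embryo is not in the labels, and protrusions 1 and 2 have titles that differ by a single character. The p-values therefore rest on library-to-library spread, part of which may be technical. The source names give an axial position for the open neural tubes and none for the protrusions, so position and protrusion cannot be told apart.

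**Figure D1:**
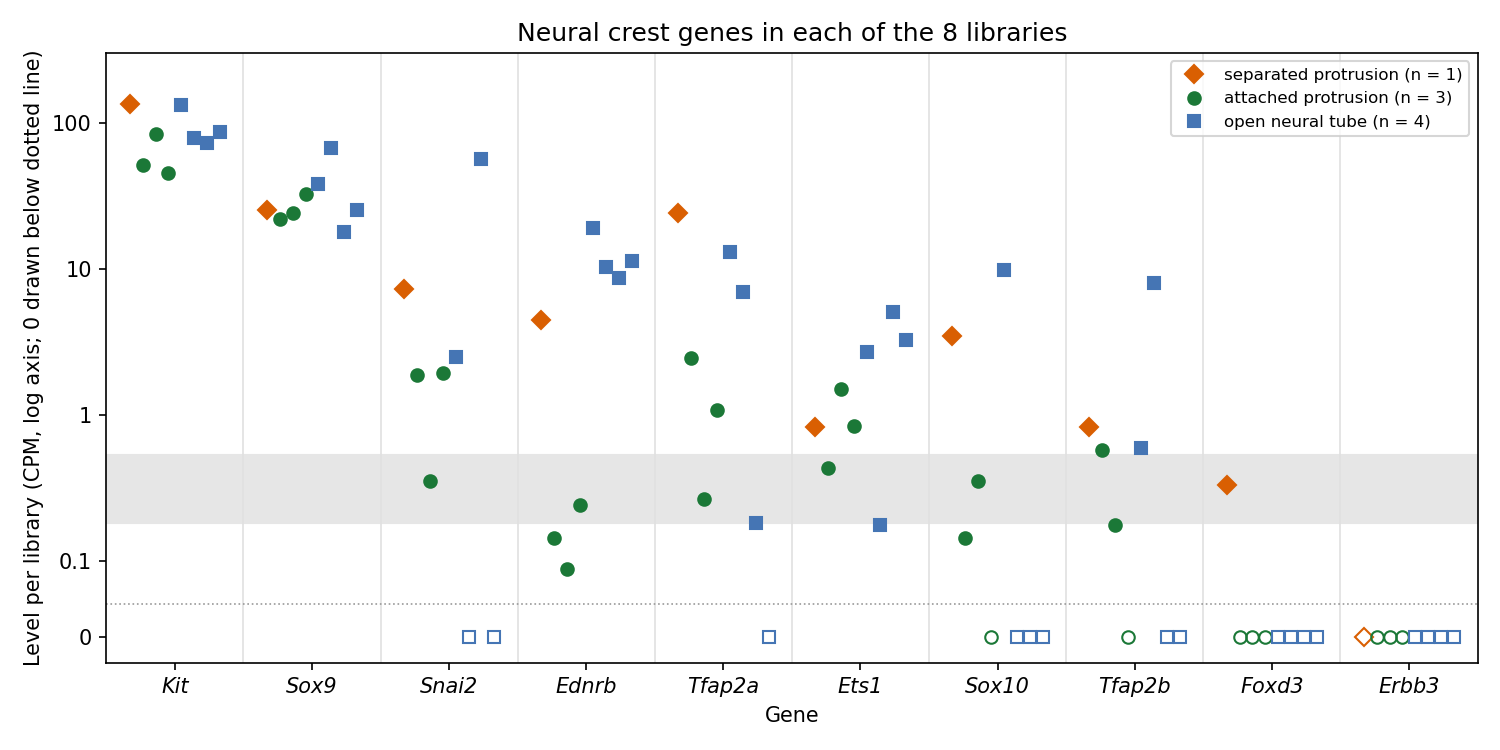
Level of each listed gene (x axis) in each library, in CPM on a log axis; diamonds are the separated protrusion, circles the 3 attached protrusions, squares the 4 open neural tubes, and open symbols under the dotted line are libraries at 0. The grey band spans the level of 3 reads, 0.18 to 0.529 CPM. Ednrb shows all 4 open neural tubes above every protrusion, while Kit and Sox9 overlap between groups.

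Kit and Sox9 were the listed genes read in depth in every library. Ednrb was the only listed gene whose groups did not overlap, as was so for 13.4% of all genes tested. It was far lower in attached protrusions than in open neural tubes, a call that edgeR lost when some single libraries were left out. With the separated protrusion included, Ednrb did not pass (edgeR adjusted p = 0.234). Most other specifiers were low, with their reads in few libraries. Sox10 and Tfap2a were both highest in protrusion 1 and open neural tube 9, Tfap2b was highest in open neural tube 10 and Snai2 in open neural tube 13. Foxd3 had 2 reads in all and Erbb3 had 0, so most of the libraries gave few reads of the genes that define committed crest. Since the open neural tube libraries missed more genes, a count of 0 there does not show that a gene was absent from the tissue.

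Ednrb, the endothelin B receptor, had 4.42 CPM in protrusion 1 and 0.143, 0.0875 and 0.24 CPM in protrusions 2, 3 and 4. In open neural tubes 9, 10, 13 and 14 it had 19.1, 10.2, 8.65 and 11.3 CPM. The groups did not overlap, and the separated protrusion stood between the attached ones and the open neural tubes. The attached protrusions held 1, 1 and 2 reads, all under the floor, against 193, 58, 144 and 95 reads in open neural tubes.

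For attached protrusions over open neural tubes, Ednrb fell by 6.29 ± 1.13 on the log2 scale (SE; edgeR quasi-likelihood test, adjusted p = 0.0370, n = 3 and 4). It averaged 0.157 ± 0.0774 CPM in attached protrusions and 12.3 ± 4.63 CPM in open neural tubes (SD). It was the only one of the 6 listed genes tested there that passed; of all 11466 genes tested there, 1.5% passed, 0.741% as lower and 0.759% as higher. Without scaling factors, 83 genes were lower and 130 higher, where TMM factors gave 85 and 87. At an unadjusted p under 0.05 stood 2 of the 6, Ednrb and Kit, and 17.7% of all genes. Every attached protrusion lay below every open neural tube in 6.94% of genes tested and above in 17.9%, which makes 24.8% without overlap. Of the 1752 genes whose mean level lay within a factor of 1.5 of that of Ednrb, 2, Ednrb included, stayed at or below 0.24 CPM in all 3 attached protrusions. That limit is the highest attached level of Ednrb itself, so Ednrb meets it by construction. Ednrb was read in all 4 open neural tubes, the libraries that missed more genes.

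With the separated protrusion included, the log2 fold change of Ednrb was −3.42 ± 1.31 (edgeR adjusted p = 0.234, n = 4 each). It averaged 1.22 ± 2.13 CPM in protrusions, against 12.3 ± 4.63 CPM in the open neural tubes. Of the 6 listed genes tested in all 8 libraries, 0 passed edgeR's threshold, where 0.607% of 11036 genes did, 0.326% as lower and 0.281% as higher. All 4 protrusions lay below all 4 open neural tubes in 4.55% of genes tested and above in 8.84%, together 13.4%; Ednrb was the 1 listed gene among them. At an unadjusted p under 0.05 stood 1 of the 6, Ednrb, and 15.3% of all genes. DESeq2, limma-voom and limma-voom with sample weights each called 1 listed gene, Ednrb, at adjusted p of 0.0271, 0.0459 and 0.026. The range over 16 alternatives was 0.026 to 0.487. Of all genes they tested, these 3 methods called 1511 of 14328, 370 of 11036 and 189 of 11036, where edgeR called 67 of 11036. In attached protrusions the edgeR call ended without protrusion 2, 3 or 4 or open neural tube 9 or 14, at adjusted p of 0.16, 0.16, 0.132, 0.081 and 0.072, with log2 fold changes of −6.73 to −5.91. Over the 14 alternatives there, the adjusted p ran from 5.71e-10 with DESeq2, which called 1537 of 13372 genes, to 0.16. In tissue libraries, fewer cells with Ednrb and less Ednrb RNA per cell cannot be told apart.

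**Figure D2:**
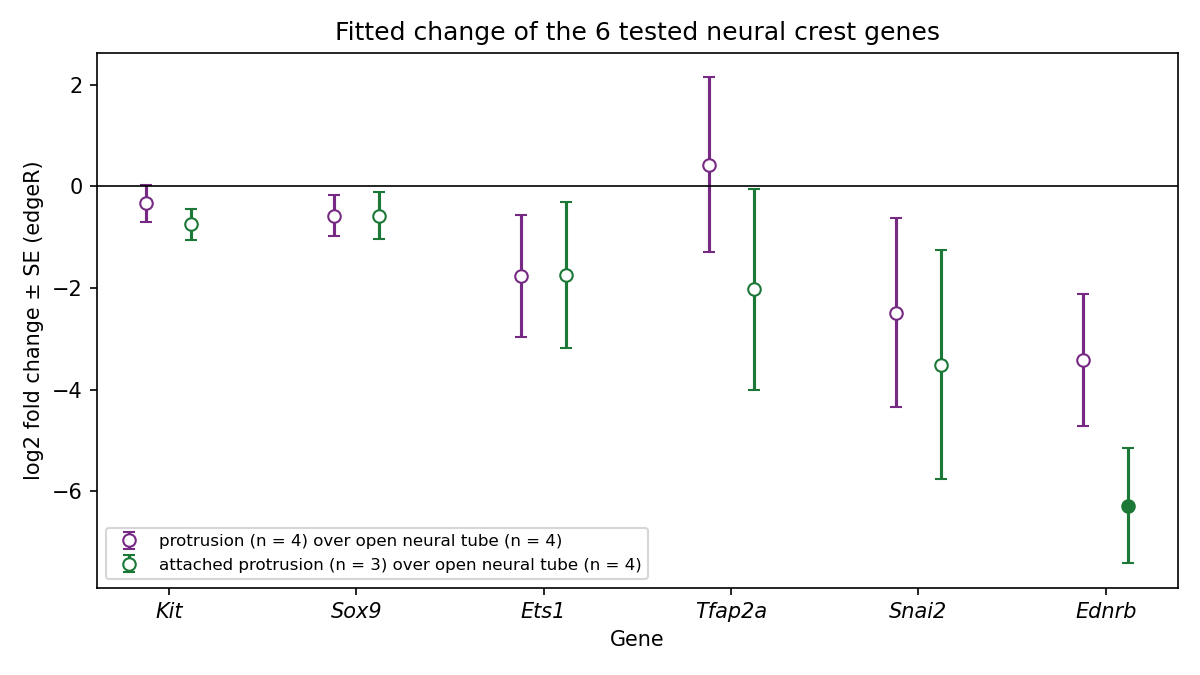
Log2 fold change with its standard error (y axis) of the 6 listed genes that could be tested (x axis), for all 4 protrusions and for the 3 attached protrusions, each over the 4 open neural tubes. Filled symbols have an adjusted p under 0.05. Ednrb in attached protrusions, at −6.29 ± 1.13, is the filled one.

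Both comparisons use the same open neural tubes, so their values are given side by side and do not count as independent. Over all genes tested the median log2 fold change was 0.08 in all protrusions and 0.09 in attached ones. Over the 6 listed genes tested it was −1.17 and −1.88, with 5 and 6 of the 6 below 0, where 46.3% and 46.0% of all genes were below 0. The 4 others, Sox10, Foxd3, Tfap2b and Erbb3, had too few reads for the low-count filter. The 6 that passed it are not all members, and reads in either group could carry a gene through. In attached protrusions Ednrb had 1, 1 and 2 reads, so the open neural tubes alone carried it through there. Ets1, at 0.43 to 1.49 CPM in attached protrusions, also needed the open neural tubes to pass. The filter thus favoured a sign below 0 for such genes, and the count of signs is no support for a fall of the group.

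Kit, the receptor for Kit ligand, was the most abundant of the 10. It had 134, 50.9, 83.5 and 45.2 CPM in protrusions 1 to 4 and 131, 78.7, 72.6 and 86.0 CPM in open neural tubes 9, 10, 13 and 14. The groups overlapped: protrusion 1 was as high as open neural tube 9, and protrusions 2 and 4 were below every open neural tube. The log2 fold change was −0.33 ± 0.36 in all protrusions (edgeR adjusted p = 0.749) and −0.74 ± 0.31 in attached ones (adjusted p = 0.247). Markers of other cells that use Kit stand beside these values. The germ cell list holds Kit itself; of its 10 other markers 5 could be tested and 0 passed in either comparison. Dppa5a and Nanog were at 0 in all 8 libraries, and the 10 summed to 1053 to 2619 CPM in protrusions, against 386 to 1356 CPM in the open neural tubes. Most of that was Ifitm1, a membrane protein of the early embryo as well, at 1554 ± 697 CPM in protrusions and 678 ± 468 CPM in the open neural tubes. Of 15 blood markers 4 and 5 could be tested and 0 passed, with Hbb-y and Hbb-b1 at 0 in all 8 and sums of 39.9 to 198 CPM in protrusions, against 21.9 to 1020 CPM in the open neural tubes. The part of these cells in the Kit level was not tested.

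Sox9, a transcription factor of the crest and of cartilage precursors, came next. It had 25.4, 21.9, 24.0 and 32.6 CPM in protrusions 1 to 4 and 38.0, 67.2, 18.0 and 25.1 CPM in open neural tubes 9, 10, 13 and 14. The protrusions lay within the range of the open neural tubes, which were spread more widely. The log2 fold change was −0.58 ± 0.41 in all protrusions (edgeR adjusted p = 0.568) and −0.57 ± 0.47 in attached ones (adjusted p = 0.632). Notochord and floor plate markers, whose cells use Sox9 too, summed to 59.4 CPM in protrusion 1, 443 to 851 CPM in attached protrusions and 28.3 to 113 CPM in open neural tubes. Of 10 such markers 8 were tested; 0 passed in all protrusions, and T, the Brachyury gene of streak and notochord, rose in attached ones by 6.54 ± 1.20 on the log2 scale (edgeR quasi-likelihood test, adjusted p = 0.0396). The sums in attached protrusions were mostly T, a gene of the streak list as well. It gave 379 of the 443 CPM in protrusion 4 and 498 of the 851 CPM in protrusion 3, where Foxj1 gave another 284 CPM. Shh, Nog, Chrd, Foxa1, Foxa3, Foxj1 and Cer1 overlapped between attached protrusions and open neural tubes. Foxa2 did not, at 21.9 to 30.8 CPM in attached protrusions and 7.69 to 16.6 CPM in open neural tubes. Noto was also higher in every attached protrusion, with 0 reads in open neural tubes. Of the 8 tested, 1 was below 0 in each comparison, with median log2 fold changes of 0.64 in all protrusions and 1.01 in attached ones. Sox9 stood at 26.2 ± 5.64 CPM in attached protrusions and 37.1 ± 21.8 CPM in open neural tubes.

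Sox10, the factor of migrating crest, was above the floor in 3 of the 8 libraries. Protrusion 1 had 3.44 CPM (21 reads), protrusions 2, 3 and 4 had 0.143, 0.35 and 0 CPM (1, 4 and 0 reads), and open neural tube 9 had 9.78 CPM (99 reads). Open neural tubes 10, 13 and 14 had 0 reads. A single open neural tube held 71.3% of the summed Sox10 level of all 8 libraries. Of 1468 genes of like mean level, 0 reads made up 6.64% of the values in protrusions, against 56.2% in open neural tubes. Foxd3, a forkhead specifier, had 0.327 CPM (2 reads) in protrusion 1 and 0 reads in the other 7 libraries.

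Tfap2a, the AP-2 factor of border and surface ectoderm, had 24.2 CPM in protrusion 1 and 2.44, 0.262 and 1.08 CPM in protrusions 2, 3 and 4. It had 12.9, 6.88, 0.18 and 0 CPM in open neural tubes 9, 10, 13 and 14. Both groups ran from the floor upward, and the separated protrusion was the highest library of all. The log2 fold change changed sign with that library: 0.43 ± 1.72 in all protrusions (edgeR adjusted p = 0.945) and −2.02 ± 1.98 in attached ones (adjusted p = 0.708). Tfap2b had 0.818, 0.574, 0.175 and 0 CPM in protrusions 1 to 4 and 0.592, 7.94, 0 and 0 CPM in open neural tubes 9, 10, 13 and 14. Its highest level, in open neural tube 10, rested on 45 reads and made up 78.6% of the sum over the 8 libraries.

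Surface ectoderm markers summed to 168 CPM in protrusion 1, the library highest in Tfap2a, to 204 to 1123 CPM in attached protrusions and to 83.9 to 357 CPM in open neural tubes. Of 16 such markers 11 and 13 were tested and 0 passed, with Krt14 at 0 in all 8 libraries; E-cadherin, Cdh1, was the most abundant at 270 ± 400 CPM in protrusions, against 24.7 ± 12.6 CPM in the open neural tubes (edgeR adjusted p = 0.0895). Cdh1 gave 871 of the 1123 CPM in protrusion 3. Tfap2c, an AP-2 factor of this list named after its values were seen, had 7.03, 3.87, 6.82 and 0.962 CPM in protrusions 1 to 4 and 6.42, 2.29, 1.38 and 2.51 CPM in open neural tubes 9, 10, 13 and 14. It was highest in protrusion 1, as Tfap2a was, but only slightly above protrusion 3. Other markers of the list differed. Grhl3 was also highest among protrusions in protrusion 1, while Krt8, Krt19, Wnt6 and Cldn6 were lowest there. Krt8, for example, had 9.16 CPM in protrusion 1 and 20.2 to 46.8 CPM in attached ones. The part of surface ectoderm in the Tfap2a level was not tested. Of 11 placode markers 4 and 6 were tested and 0 passed, and Pax8 and Foxi3 were at 0 throughout. The placode list summed to 44.7 to 76.6 CPM in protrusions, against 17.0 to 78.1 CPM in the open neural tubes.

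Snai2, the Slug repressor of epithelial junctions, had 7.20, 1.86, 0.35 and 1.92 CPM in protrusions 1 to 4. It had 2.47, 0, 56.6 and 0 CPM in open neural tubes 9, 10, 13 and 14. Open neural tube 13 alone held 80.4% of the summed level, and 2 open neural tubes had none. The log2 fold change was −2.49 ± 1.86 in all protrusions (edgeR adjusted p = 0.600) and turned to 1.65 without open neural tube 13. In attached protrusions it was −3.51 ± 2.25 (adjusted p = 0.510), and 0.61 without that library.

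Ets1, an ETS factor of cranial crest and endothelium, had 0.818, 0.43, 1.49 and 0.841 CPM in protrusions 1 to 4 and 2.67, 0.176, 5.04 and 3.22 CPM in open neural tubes 9, 10, 13 and 14. All 4 protrusions lay below open neural tubes 9, 13 and 14 and above open neural tube 10, which held 1 read. The log2 fold change was −1.76 ± 1.19 in all protrusions (edgeR adjusted p = 0.548) and −1.74 ± 1.44 in attached ones (adjusted p = 0.639).

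Both Snai2 and Ets1 were highest in open neural tube 13, the library highest in endothelial and paraxial mesoderm markers. Endothelial markers summed to 195 CPM in protrusion 1, 49.6 to 73.6 CPM in attached protrusions, 583 CPM in open neural tube 13 and 94.0 to 194 CPM in the other open neural tubes. Of 21 endothelial markers 9 and 10 were tested, with 8 and 9 below 0 and median log2 fold changes of −1.32 and −2.72. In all protrusions 0 passed. In attached ones Sox7, a vascular SoxF factor, fell by 7.34 ± 1.03 on the log2 scale (edgeR quasi-likelihood test, adjusted p = 0.0178). Erg was at 0 in all 8 libraries. Sclerotome and paraxial mesoderm markers summed to 687 CPM in protrusion 1, 382 to 799 CPM in attached protrusions, 1249 CPM in open neural tube 13 and 99.5 to 335 CPM in the other open neural tubes. Of 13 such markers 8 and 10 were tested, and Tbx6, of presomitic mesoderm, rose in both comparisons, by 8.22 ± 0.93 and 8.59 ± 0.64 (edgeR adjusted p = 0.0111 and 0.00117). The list as a whole went both ways, with 3 of 8 and 4 of 10 below 0 and median log2 fold changes of 0.54 and 0.24. Nkx3-2 was at 0 throughout, and Meox1, a somite factor and the most abundant, had a log2 fold change of 0.52 ± 0.63 in all protrusions (adjusted p = 0.773). The part of these cells in the Snai2 and Ets1 levels was not tested.

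**Figure D3:**
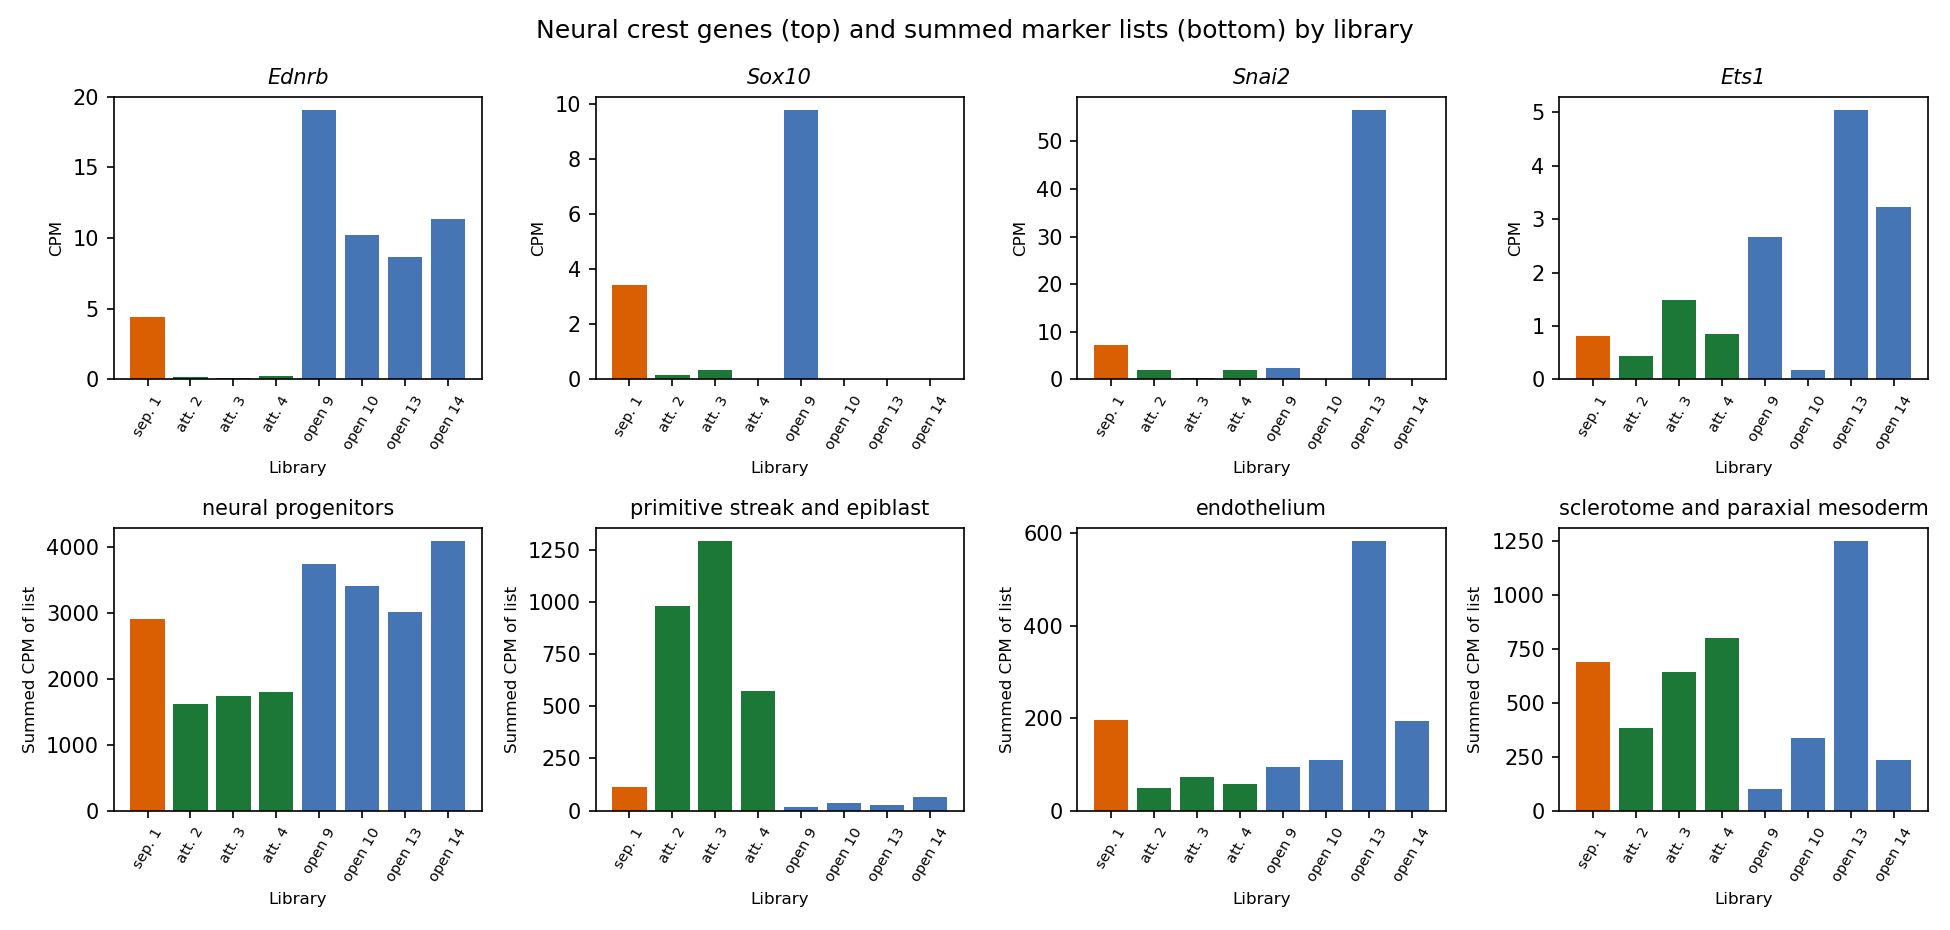
Levels by library (x axis; sep., separated protrusion; att., attached protrusions; open, open neural tubes) of 4 listed genes in CPM (top) and summed CPM of 4 marker lists (bottom). Bars start at 0. Snai2 and Ets1 peak in open neural tube 13 with the endothelial and paraxial mesoderm lists, and Ednrb is lowest in the attached protrusions, where the primitive streak list is highest.

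Erbb3, the neuregulin receptor of crest and glia, had 0 reads in all 8 libraries, which allows up to 0.262 to 0.491 CPM in protrusions, against 0.18 to 0.529 CPM in the open neural tubes. Its transcript holds 30 CATG sites, and the tag expected from it is not shared. The authors' rule for assigning tags to genes was not known here, and 8487 of the 26608 listed symbols were at 0 in all 8 libraries. Its partner receptor Erbb2, read after the values were seen, ran from 15.6 to 48.0 CPM in protrusions and from 21.0 to 62.5 CPM in open neural tubes. Nrg1, a ligand of Erbb3, had 3 reads in protrusions and 0 in open neural tubes.

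The separated protrusion held more of these genes than the attached ones. Of the 9 listed genes with any read, 7 were higher in protrusion 1 than in all 3 attached protrusions: Sox10, Foxd3, Tfap2a, Tfap2b, Snai2, Ednrb and Kit. Of these 9, Sox10, Foxd3 and Tfap2b had too few reads for the test; of the 6 tested, 4 were higher (66.7%), where 28.1% of all genes tested were. Sox9 and Ets1 lay within the range of the attached libraries. Relative to the mean of the attached protrusions, the level in protrusion 1 was 28.1-fold for Ednrb, 20.9-fold for Sox10, 19.2-fold for Tfap2a, 5.22-fold for Snai2 and 2.24-fold for Kit. The first 2 of these ratios have 4 and 5 reads in all in their denominators. With 1 separated library there is no replicate and no test. In the same library the neural progenitor list stood at 2909 CPM, against 1626 to 1806 CPM in attached protrusions and 3018 to 4093 CPM in open neural tubes. Sox11 gave 1398 of the 2909 CPM, and 2746 of the 3018 CPM in open neural tube 13. The primitive streak and epiblast list stood at 112 CPM in it, against 574 to 1291 CPM in attached protrusions and 18.8 to 63.8 CPM in open neural tubes. Protrusion 1 was thus the protrusion with the highest neural and the lowest streak sum, and their part in the levels of the listed genes was not tested. Of 13 streak and epiblast genes, 6 and 9 were tested; 1 rose in all protrusions, Nodal, a signal of gastrulation at 1.31 CPM in protrusion 1 and 25.1 to 32.8 CPM in attached ones, against 0 reads in open neural tubes, and 4 rose in attached ones. Of the 17 neural progenitor genes 15 were tested; in all protrusions 1 passed, the SoxC factor Sox11, which fell by 1.31 ± 0.22 on the log2 scale (edgeR quasi-likelihood test, adjusted p = 0.0390), and 4 fell in attached ones.

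Ligands and partners of the 3 receptors showed no call. Of the 14 genes listed, 6 were tested in each comparison and 0 passed in edgeR, with 5 of 6 below 0 and a median log2 fold change of −0.75 in all protrusions and −0.64 in attached ones. Ece1, an enzyme that activates endothelins, averaged 12.4 ± 3.18 CPM in protrusions, against 27.0 ± 8.76 CPM in the open neural tubes. Every protrusion was below every open neural tube, yet the difference did not pass (log2 −1.20 ± 0.41, edgeR adjusted p = 0.186). Ece2, a related enzyme, stood at 15.2 ± 4.79 CPM in protrusions, against 22.7 ± 11.8 CPM in the open neural tubes (adjusted p = 0.600). Edn3, the ligand of Ednrb in the crest, was read after the values were seen and had 1.64, 1.72, 3.76 and 1.92 CPM in protrusions 1 to 4, 16.2 CPM in open neural tube 10 and 0 reads in the other 3 open neural tubes.

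Genes of the stages before and after specification were described from longer lists. Of 20 neural plate border genes 13 were tested. Gbx2, a homeobox gene of the hindbrain region and, in Xenopus, of the plate border, rose in all protrusions by 3.31 ± 0.40 on the log2 scale (edgeR quasi-likelihood test, adjusted p = 0.0111) and in attached ones by 3.51 ± 0.38 (adjusted p = 0.00976). In attached protrusions Zic1, a zinc finger factor of the dorsal neural plate, fell, and the median of the list was 0.45 in all protrusions and 0.16 in attached ones. Of 30 genes of emigration and mesenchymal transition 26 were tested and 0 passed in all protrusions, with a median of −0.22. In attached ones 1 passed: Robo2, a Slit receptor, fell by 5.11 ± 0.64 (edgeR adjusted p = 0.0157), with 2.29 ± 0.741 CPM in attached protrusions and 75.4 ± 45.9 CPM in open neural tubes. Epha4, an ephrin receptor, stood at 98.0 ± 19.0 CPM in attached protrusions and 16.6 ± 11.5 CPM in open neural tubes (adjusted p = 0.0652).

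Likeness of profiles was measured for the 6 listed genes tested, which leaves out Sox10, Tfap2b, Foxd3 and Erbb3. It was taken as the root mean square difference of mean-centred log2 CPM over the 8 libraries, so that a smaller value means more alike. Between these genes it was smallest for Kit and Sox9, at 0.71, and Ednrb was nearest to Kit among them, at 2.04. Among the 11036 genes tested, Kit ranked 746 in nearness to Ednrb. The nearest to Ednrb was Fgfr3, an FGF receptor of neural progenitors, at 0.67. Fgfr3 had 14.7, 1.00, 1.40 and 4.57 CPM in protrusions 1 to 4 and 45.3, 57.2, 24.9 and 28.7 CPM in open neural tubes 9, 10, 13 and 14. Its groups did not overlap, and it was highest among protrusions in the separated one. Fgfr3 was chosen for its likeness to Ednrb over these same libraries, so the shared pattern is no separate finding.

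For Snai2 the nearest gene was Cyp26b1, which breaks down retinoic acid, at 0.90, with 15.5 CPM in protrusion 1 and 61.6 CPM in open neural tube 13. For Tfap2a it was the small nucleolar RNA Snora17, at 1.20, and for Ets1 it was Cwf19l1, at 0.45. For Kit it was Alg8, a glycosylation enzyme, at 0.25, and for Sox9 it was LOC100505039, at 0.18. Genes that vary little over the libraries, such as Kit and Sox9, are close to many others by this measure.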

How the data were processed

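SAGE counts of 8 neural tube libraries were analysed. The deposited values are raw read counts by gene symbol, not scaled by the authors. Per the labels' protocols, 7 to 12 ng of RNA went into each SOLiD SAGE library, and the build was mm9 by the submitters' processing notes. The mapping program and the tag-to-gene rule were not stated in the labels used. No coordinates are given, since the reference is of another build. Groups follow the source names; open neural tube numbers come from the titles and protrusion numbers from the listing order. No 2 libraries of a group held the same values.

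CPM (reads scaled to a library total of 1000000) was computed here. Tests used edgeR 4.0.16 under R 4.3.3: filterByExpr (minimum count 10), TMM factors, robust quasi-likelihood F test, 2-sided, Benjamini-Hochberg over all genes tested, threshold 0.05. Log2 CPM used a prior count of 2. DESeq2 1.42.0 and limma 3.58.1 served as alternatives. The edgeR fits were tested on simulated data. In all and attached protrusions they called 2% and 0% of 2-fold changes, 36% and 34% of 4-fold changes and 54% and 54% of 16-fold changes. A gene that did not pass may therefore still differ.

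Members and lists were chosen with earlier results of these data known. Besides the 10 genes, the text names up to 4 called genes of each list or the 2 with the smallest p, the most abundant marker of each other cell type, and the nearest gene by likeness; some are given as counts only, and some are not reported here.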

Additional observations from a re-analysis of the deposited data

Results flagged for a closer look

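In 17 sets of 4 libraries, a listed gene in 1 group, 7 had a library far from the other 3, by the 95% limit of Dixon's gap-to-range ratio. For normally distributed values chance flags about 1 set in 20; over all genes tested, which are mostly more abundant, 9.76% of 22007 such sets were past the limit. The separated protrusion was that library for Sox10 at 3.44 CPM, Foxd3 at 0.327 CPM (2 reads), Tfap2a at 24.2 CPM and Ednrb at 4.42 CPM. Among open neural tubes it was number 9 for Sox10 at 9.78 CPM, number 10 for Tfap2b at 7.94 CPM and number 13 for Snai2 at 56.6 CPM. In 2 of these sets, Foxd3 in protrusions and Sox10 in open neural tubes, the other 3 libraries were at 0.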

How the results depend on the processing

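In all protrusions, the number of listed genes past the threshold was 0 and became 1, Ednrb, with DESeq2, with limma-voom, with sample weights, and without both protrusion 1 and open neural tube 13 (1, chosen after seeing the data); it ran from 0 to 1 when single libraries were left out, with 1 without protrusion 1. In attached protrusions it was 1, became 0 when 20 CPM in at least 3 libraries were asked for, since Ednrb was then not tested, and ran from 0 to 1 without single libraries. Ednrb stayed below 0 under all 16 and 14 alternatives. Signs turned for Snai2 in all protrusions (0.40 with limma-voom, 0.37 with sample weights, 0.61 without both libraries, −3.51 to 1.65 without single ones) and in attached ones (0.40 with sample weights, −3.94 to 0.61 without single ones), and for Tfap2a in all protrusions (−2.43 without both libraries, −2.02 to 1.62 without single ones). Beyond the libraries left out, the cause was not tested. Sox9, Ets1 and Kit kept sign and side of the threshold in each alternative run. With TMM-scaled library sizes, 17 of the 17 group means above 0 of the listed genes moved by less than 1 SD. Over all genes, calls numbered 67 in all protrusions (82 to 1511 under other settings, 1 to 211 with libraries left out) and 172 in attached ones (185 to 1537, and 10 to 211). Of the 172, 49.4% were lower, against 26.5% of 869 with limma-voom, 39.0% of 213 without scaling factors, 57.5% of 226 with upper-quartile factors and 10% of 10 without protrusion 4. Of the 67, 53.7% were lower, against 37.7% with DESeq2, 62.9% with the 20 CPM filter and 0% of the 1 call without open neural tube 9. No paired analysis was possible because the labels do not say which libraries share an embryo. Foxd3, Erbb3, Sox10 and Tfap2b had too few reads to be tested; the deepest library, open neural tube 13, held 0 reads of all 4. Calls of single genes outside the 10 were not recomputed under other settings.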

Other observations

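Markers of crest derivatives were sparse. Of 27 such genes, 12 were tested in all protrusions and 14 in attached ones, and 0 passed edgeR's threshold, with median log2 fold changes of 0.16 and 0.10. Tyr, Hand2, Neurog1 and Dlx2 were at 0 in all 8 libraries. Pmel, a pigment cell protein listed as Si, had 2.25 ± 0.633 CPM in protrusions and 0 reads in open neural tubes (SD, n = 4 each; edgeR adjusted p = 0.0832).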
